A study of Mus musculus with 6 samples.

Results

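Mouse embryonic stem cells that make DNMT1 without its first 602 amino acids were compared before and after 4 days of differentiation, with 1 array at day 0 and 1 at day 4. These are 2 of the 6 arrays of the study, which also followed a line with full-length DNMT1 and both lines to day 7. The platform annotation gave 18193 genes at least 1 probe set of their own, and 13277 of them had a signal high enough to be measured and are described here. All 6 arrays came from embryonic stem cells in which Dnmt1, Dnmt3a and Dnmt3b were knocked out and into which a DNMT1 expressed ubiquitously had been placed, full-length in 1 line and truncated in the other. The line with the truncated protein is called the deletion line below. Its day 0 cells grew in DMEM with 10% FBS and leukaemia inhibitory factor (LIF), and its day 4 cells had been embryoid bodies for 1 day and attached cells for a further 3 days in medium without LIF. Activin A (10 ng/ml) entered only the day 7 samples, which had 3 more days in medium with 10% KSR. Leaving LIF, aggregation, attachment, time and any other change of medium therefore go together and cannot be told apart. The serum content of the day 4 medium is not given here. The sources used here do not state the promoter of the DNMT1 construct, the number of clones behind each line or whether feeder cells were used.

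LIF binds a receptor made of LIFR and gp130, and the receptor's JAK kinases activate the transcription factor STAT3, which holds mouse embryonic stem cells in the naive state. Naive cells express factors such as Klf4, Esrrb and Tfcp2l1 beside the core factors OCT4 (Pou5f1), SOX2 and NANOG. Once LIF is withdrawn, FGF and ERK signalling moves the cells through a formative state marked by Fgf5, Otx2 and Pou3f1, and in embryoid bodies an outer layer of extraembryonic endoderm forms around epiblast-like cells. DNA methyltransferases copy and place the methyl marks that keep germ cell genes and imprinted alleles silent during this transition.

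Levels are log2 MAS5 signals raised to a floor of log2 5.365, and a gene was called when its arrays were at least 2-fold apart (log2 1) with the brighter one at least 2 times the floor. With 1 array a side nothing measured the spread between cultures, so there is no test, no error and no p-value, and the number of arrays limits the precision. Of 13277 genes, 831 were called higher at day 4 (6.26%) and 540 lower (4.07%), together 10.3%. The median difference over all measured genes was 0.06, with the 5th percentile at -0.88 and the 95th at 1.12. Large differences were more often downward: 23 genes were at least 8-fold higher and 41 at least 8-fold lower, and at 16-fold the counts were 4 and 15. The dimmer array lay at the floor for 163 of the higher and 160 of the lower genes, and their differences are lower bounds in size.

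**Figure D1:**
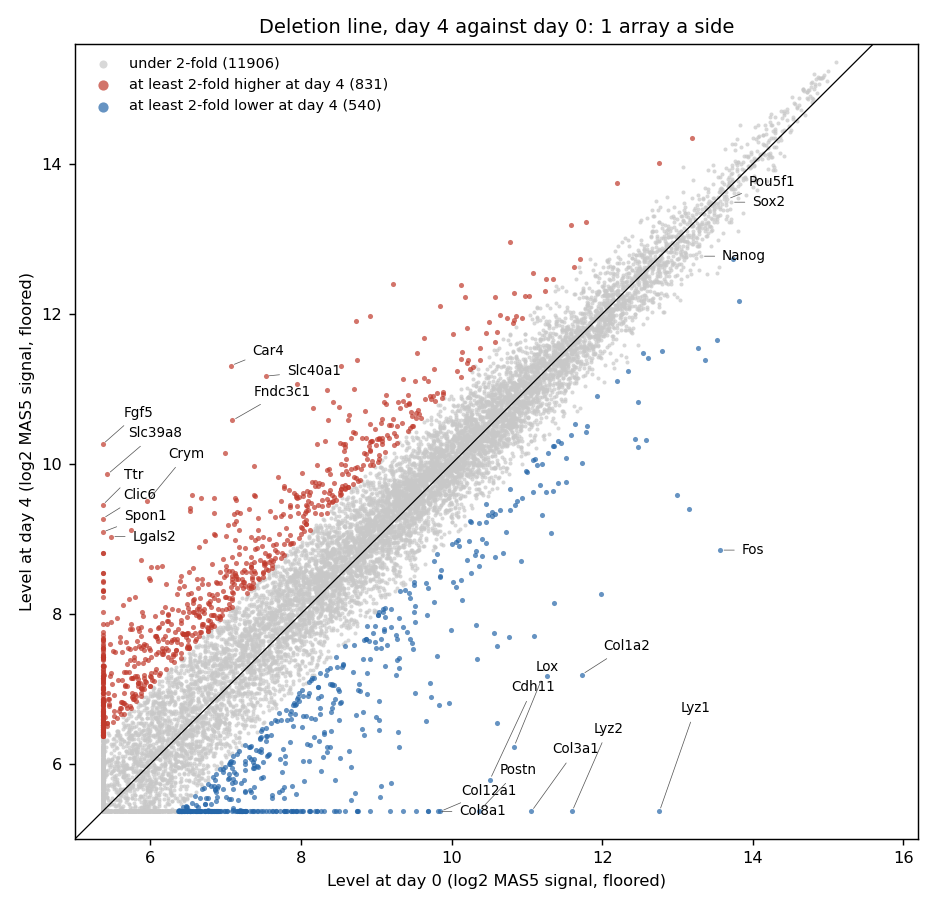
Level of each of the 13277 measured genes at day 0 (horizontal) and day 4 (vertical) in the deletion line, in log2 MAS5 signal with low values raised to the floor, 1 array a side. Red points are the 831 genes called higher at day 4 and blue points the 540 called lower, and the line marks equal levels. Fgf5 left the floor to reach 10.26, Lyz1 went from 12.76 to the floor, and Pou5f1, Sox2 and Nanog lie near the line.

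The day 0 array carries a source label that reads as differentiated cells, against its title. On it Klf4 lay at 13.15, against 9.40 at day 4, and Fgf5, Ttr and Afp lay at the floor. The fibroblast gene Col1a2 (11.73) and the lysozyme gene Lyz1 (12.76) were bright on it. Pou5f1 and Zfp42, the naive marker REX1, were bright on both arrays and do not tell them apart. The title was used for the grouping. Dnmt1 had levels of 8.97 at day 0 and 8.37 at day 4. Its further probe sets differed by -0.19 and 0.0, the latter lying at the floor on both arrays. Dnmt3b read 8.21 and 9.04, and Dnmt3a was not measured because its 5 probe sets stayed below the floor on average. The position of these probe sets relative to the deleted gene parts and the construct is not known here, so they check nothing about the genotype.

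Some genes of the LIF pathway were lower at day 4. Socs3, the feedback inhibitor that STAT3 induces, went from 12.48 to 10.23, a 4.76-fold lower level, and its further probe sets gave log2 differences of -2.0 and -1.54. Stat3 itself was at 10.09 and 8.99 (log2 -1.10, further probe sets from -1.18 to -0.53). Both arrays thus separate by more than 2-fold for the inhibitor and for the factor that drives it. In the list of LIF receptor and STAT3 pathway genes 5 of 24 were called lower (background 4.07%) and 1 higher, and the list median was -0.23 against 0.06 over all genes. Bcl3, a nuclear co-regulator of NF-kappaB proteins, went from 9.43 to 8.28, and Junb, an AP-1 subunit, from 9.85 to 8.49. Osmr, the receptor for oncostatin M, went from 8.76 to the floor, at least 10.5-fold by its brightest probe set and log2 -1.17 by the other. Stat5b stood apart with 6.32 and 7.76, but its other probe set differed by 0.0.

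The receptor chains themselves were closer to level. Lifr read 10.92 and 10.10, with further probe sets from -0.23 to 0.49, and Il6st, which encodes gp130, 9.20 and 9.24, with further probe sets from -1.23 to -0.70. The kinase gene Jak1 was at 9.5 and 9.54 and Jak2 at 8.27 and 9.08. Pim1 and Pim3, kinases that STAT3 induces, differed by -0.42 and -0.47, and Socs2 by -0.27. None of these passed the 2-fold limit by its brightest probe set. In bulk RNA, fewer cells that express a gene and less of its RNA in each cell cannot be told apart, here or in any group below.

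Promoter sequence was read for the genes of this pathway and of the immediate early list that were called lower, from 250 bases before to 50 after the RefSeq start in GRCm38.p6, for those with 1 promoter in the table. The letters TTCNNNGAA, the spacing that STAT factors bind, were in 1 of 5 LIF pathway promoters, that of Socs3, and in 8.49% of all 22862 promoters. Of 7 immediate early promoters 1 held it, that of Zfp36, which also had the only CArG box of the 7, the binding sequence of serum response factor, against 1.53% of all promoters. The E-box CACGTG was in the Klf4 promoter alone among the 7, against 7.12% of all promoters. TGACGTCA (CRE) was in none of the 7 and 1.85% of all, and TGANTCA (AP-1) in none of the 7 and 7.98% of all. Among promoters of the 8525 measured genes with 1 promoter the shares were 6.51% for STAT, 1.27% for the CArG box, 10.2% for the E-box, 3.14% for CRE and 4.66% for AP-1. The Osmr promoter, of the LIF pathway, held TGANTCA at 3. Both strands were searched and no match overlapped another. Promoters of Bcl3, Fos, Fosb, Fosl2, Junb, Nr4a1 and Stat3 held none of the 5 motifs in this window. Of those with matches, 3 promoters are shown, from the LIF, naive and immediate early lists, which share members. Matched letters are in capitals: STAT at -154 in Socs3, E-box at -182 in Klf4, and the CArG box at -58 and STAT at -17 in Zfp36, counted from the start to the first base of the match. They lie at chr11:117969317-117969616 (minus strand), chr4:55532426-55532725 (minus) and chr7:28379179-28379478 (minus).
Socs3: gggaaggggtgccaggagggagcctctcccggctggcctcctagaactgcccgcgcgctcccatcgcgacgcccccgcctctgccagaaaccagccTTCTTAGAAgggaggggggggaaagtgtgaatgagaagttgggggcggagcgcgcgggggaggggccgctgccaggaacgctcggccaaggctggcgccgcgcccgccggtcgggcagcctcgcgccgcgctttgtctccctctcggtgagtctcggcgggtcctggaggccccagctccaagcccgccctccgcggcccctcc
Klf4: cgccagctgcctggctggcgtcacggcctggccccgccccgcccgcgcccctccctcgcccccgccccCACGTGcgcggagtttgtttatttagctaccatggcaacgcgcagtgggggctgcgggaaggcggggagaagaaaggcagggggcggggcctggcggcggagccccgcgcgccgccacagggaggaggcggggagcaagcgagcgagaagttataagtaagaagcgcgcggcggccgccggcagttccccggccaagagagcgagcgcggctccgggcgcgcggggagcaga
Zfp36: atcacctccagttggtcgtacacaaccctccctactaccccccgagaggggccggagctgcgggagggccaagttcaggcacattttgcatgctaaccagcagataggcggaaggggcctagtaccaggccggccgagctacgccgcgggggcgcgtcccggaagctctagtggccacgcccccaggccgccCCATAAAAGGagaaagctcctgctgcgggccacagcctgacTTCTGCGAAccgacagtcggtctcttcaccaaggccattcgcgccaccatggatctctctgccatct

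The naive pluripotency genes were lower as a group, and unevenly so. In that list 10 of 22 measured genes were called lower (background 4.07%), 0 higher, and 12 were under 2-fold. Stat3, already counted in the LIF list, is among the 10. The list median was -0.93 against 0.06 over all genes. Klf4, a Krueppel-like factor that STAT3 induces, went from 13.15 to 9.40, 13.5-fold lower, and its other probe set gave -4.04. Tbx3, a T-box factor of the naive network, went from 9.47 to 7.61 (other probe set -2.24). Both lay more than 3-fold below their day 0 levels on all their measured probe sets. Tcl1, an AKT co-activator, was at 11.73 and 10.01, and the adhesion gene Jam2 at 10.72 and 9.09. Further Jam2 probe sets ranged from -2.04 to -0.62. Mras, a RAS-family GTPase, went from 7.78 to the floor, at least 5.33-fold lower.

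Esrrb and Tfcp2l1, orphan and CP2-family factors of the naive circuit, were just past the limit with 11.34 and 10.24 for Esrrb and a difference of -1.11 for Tfcp2l1. Further Esrrb probe sets ranged from -1.21 to -0.70. Tet2, which oxidises methylcytosine, was at 10.4 and 9.0, and Manba, a lysosomal mannosidase, at 11.52 and 10.08. By their brightest probe sets these 4 genes were lower by a little over 2-fold to under 3-fold. Klf2 (-0.98), Nr0b1 (-0.88), Gbx2 (-0.83), Klf5 (-0.80), Prdm14 (-0.72) and Nr5a2 (-0.65) were lower by less than 2-fold by their brightest probe sets. The other Klf5 probe set gave -1.09, and further Nr5a2 probe sets ranged from -1.38 to -0.53. Zfp42 read 14.30 and 13.92. Dppa3, the maternal factor STELLA, and Fgf4, the main FGF ligand of stem cells, lay slightly above their day 0 levels, at 0.28 and 0.60. Naive genes thus ranged at day 4 from the floor for Mras to 13.92 for Zfp42.

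General pluripotency genes were nearly level. Pou5f1 was at 13.66 and 13.53, Sox2 at 13.71 and 13.49, and Nanog at 13.31 and 12.77, so the largest of the 3 differences, for Nanog, was -0.54. The list median was -0.04, with 1 of 21 genes called lower (background 4.07%) and 0 higher. That gene was Rex2, a zinc finger gene, with levels of 9.52 and 7.89. Dppa5a stayed at 14.79 and 14.88, Sall4 at 12.84 and 12.85 and Lin28a at 12.12 and 12.36. Tdgf1, the Nodal co-receptor, differed by -0.71 and Gdf3, a Nodal-related ligand, by -0.53.

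Genes of the formative and primed epiblast were higher. Of 22 measured genes 10 were called higher (background 6.26%) and 2 lower, and the median was 0.74 against 0.06 over all genes. Fgf5 went from the floor to 10.26, at least 29.8-fold, and its other probe set gave 3.20. Otx2, a homeobox factor that directs the move out of naive pluripotency, went from 10.18 to 12.22 (4.11-fold), and its POU partner Pou3f1 from 9.63 to 11.68 (4.14-fold, other probe set 2.43). All 3 defining markers of this state were thus at least 4-fold above their day 0 levels. The claudin gene Cldn6 went from 9.85 to 12.10, the carbonic anhydrase gene Car14 from 6.86 to 9.05, and the kinase gene Pim2 from 9.13 to 10.92. Sall2 was at 7.17 and 8.89, the WNT inhibitor gene Dkk1 at 6.06 and 7.70, Sox3 at 8.03 and 9.57 and Sox4 at 11.35 and 12.47, where Sox4's further probe sets ranged from -0.20 to 1.61.

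The exceptions in this list were Etv4, an ETS factor of FGF signalling, with 9.10 and 7.77, and Fst, the activin antagonist follistatin, with 9.30 and 7.28. Etv5 read 13.41 and 13.08, Lef1 8.86 and 9.25, Zic2 9.45 and 9.42, and Cdh2, which encodes N-cadherin, 9.41 and 8.79. Genes of the FGF and ERK feedback circuit split accordingly, with 3 of 22 called higher (background 6.26%), 2 lower (background 4.07%) and a median of 0.34. The ERK phosphatase gene Dusp4 was at 7.94 and 9.58 and the inhibitor gene Spry1 at 9.34 and 10.54, both higher, whereas the ligand gene Fgf17 was lower at 9.26 and 7.19. At day 7, after Activin A, Fgf5 read 7.80, Pou3f1 8.63 and Pim2 8.81 in this line, below their day 4 levels.

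**Figure D2:**
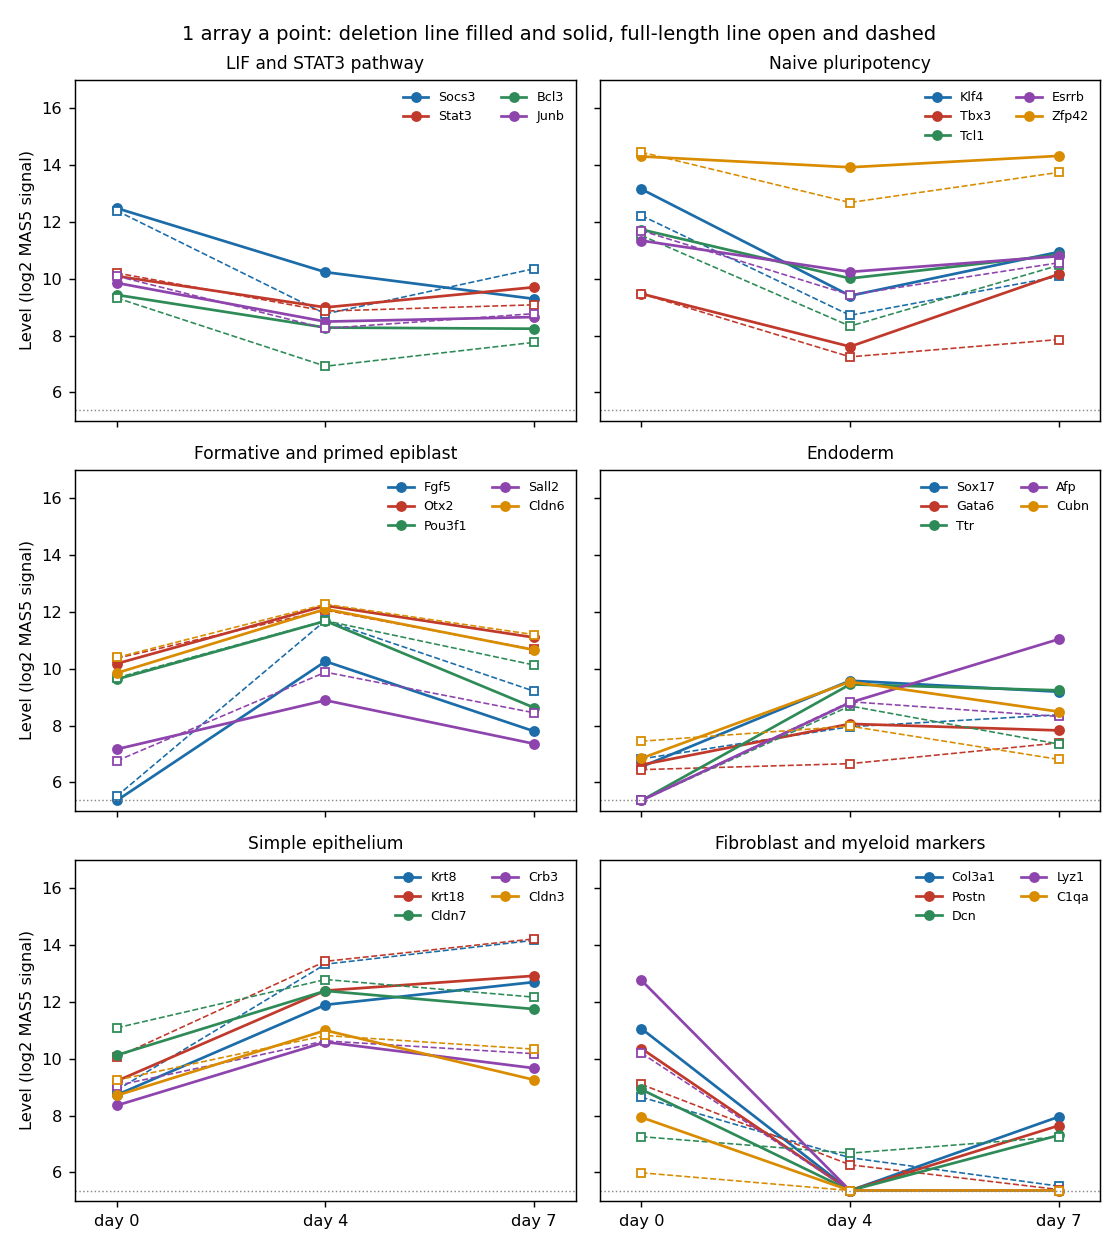
Levels of chosen genes of 6 groups at days 0, 4 and 7 (log2 MAS5 signal, 1 array a point), with the deletion line filled and solid and the full-length line open and dashed, and the floor dotted. In the deletion line Socs3 and Klf4 are lower at day 4, and Fgf5, Sox17 and Krt8 higher. Col3a1, Postn, Dcn, Lyz1 and C1qa, of the fibroblast and myeloid lists, sit at the floor at day 4.

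Immediate early genes, which growth factors and serum switch on within minutes without new protein synthesis, held some of the largest differences. Of 28 measured genes 9 were called lower (background 4.07%) and 0 higher, and the median was -0.41. Junb and Klf4, already counted in the LIF and naive lists, are among the 9. Fos, an AP-1 subunit, went from 13.57 to 8.85, 26.4-fold lower, and Fosb from 9.69 to the floor, a log2 difference of -4.32 or lower. The zinc finger genes Egr1 and Egr2 went from 13.00 to 9.58 and from 9.18 to the floor, with the other Egr2 probe set at -3.81. These 4 genes were bright at day 0 and more than 10-fold dimmer at day 4. Zfp36, an mRNA decay factor, was at 10.46 and 9.22, and the orphan receptor gene Nr4a1 at 11.14 and 9.99. Fosl2 was at 8.31 and 6.4 by its brightest probe set, but 0.31 higher by the other. The other 19 genes were under 2-fold: the AP-1 genes Fosl1, Jun and Jund differed by -0.61, -0.18 and 0.67, Atf3 by -0.15, the phosphatase gene Dusp1 by -0.39 and Myc by 0.67, and Egr3 by 0.47 with its other probe set at -1.42.

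Genes of endoderm were higher. All 11 measured endoderm transcription factor genes lay above their day 0 level, 6 of them by at least 2-fold (background 6.26%), and the list median was 1.40 against 0.06 over all genes. Sox17, which specifies endoderm, went from 6.55 to 9.58, 8.17-fold higher, and its other probe set gave 1.61. Gata6, an early factor of primitive endoderm, went from 6.62 to 8.06 (other probe set 1.69), and Sox7 from 5.5 to 7.5. Foxa1 was at 5.90 and 7.97, Foxa2 at 6.07 and 7.47 and the T-box gene Eomes at 6.15 and 8.03. Thus most of these factors began near the floor and reached moderate levels. Gata4, Hnf4a and Hhex were under the limit, at 0.77, 0.15 and 0.47.

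The list of visceral and parietal endoderm genes was higher in part, with 15 of 29 called higher (background 6.26%), 2 lower and a median of 1.11. Ttr, the thyroid hormone carrier transthyretin, went from the floor to 9.45, a difference of at least 4.08, with further probe sets from 3.16 to 3.88. Afp, alpha-fetoprotein, went from the floor to 8.81 (at least 10.9-fold, or log2 1.70 and 2.30 by further probe sets) and reached 11.04 at day 7. Both were at the floor at day 0 and clearly measured at day 4. The endocytic receptor gene Cubn was at 6.85 and 9.54 (6.45-fold) and its adaptor Dab2 at 8.34 and 10.99. Cyp26a1, which degrades retinoic acid, went from the floor to 8.30 and the co-activator gene Cited1 from 6.01 to 8.63. The lower genes were Fst and Thbd, which encodes thrombomodulin, at 7.79 and 6.11. The other 12 were under 2-fold, among them the laminin genes Lama1, Lamb1 and Lamc1 (0.61, 0.46 and -0.08), Sparc (-0.19) and Plat (-0.44). The collagen gene Col4a1 was called higher (1.15).

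Epithelial genes were higher together. Of 26 genes of cell junctions and epithelial splicing 13 were called higher (background 6.26%) and 0 lower. All 26 differences were above 0, from 0.10 to 2.29, with a median of 0.99. The tight junction genes Cldn3 and Cldn7 were higher by 4.89-fold and 4.79-fold, the latter from 10.13 to 12.39, and the polarity gene Crb3 from 8.36 to 10.59. Desmocollin 2, encoded by Dsc2, went from the floor to 7.51, with the other probe set at 0.86. Marveld2, a protein of tricellular junctions, was at 6.69 and 8.46. Cdh1, the E-cadherin gene of both stem cells and epithelia, was bright on both arrays, at 13.28 and 13.53, and the surface marker Epcam at 12.67 and 13.11.

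Keratins of simple epithelia followed. Krt8 went from 8.73 to 11.90 (9.0-fold, further probe sets 2.96 and 3.18) and its partner Krt18 from 9.22 to 12.40 (9.06-fold), and the pair had nearly equal differences. Krt19 was at 7.15 and 9.36 and Krt7 at 6.31 and 7.67. Krt17, a keratin of stratified epithelia, was lower at 8.52 and 6.81. Over the 14 measured keratins the median was 0.00, with 5 called higher (background 6.26%) and 3 lower (background 4.07%). These 4 simple keratins are also 4 of the 10 genes called higher in the trophoblast list of 23 (background 6.26%), where 0 were lower (median 0.80). Plac1, a placental membrane protein, was at 6.09 and 8.62 there, Gata2 at 6.63 and 8.35. In that list 3 genes, Elf5, Gata3 and Pparg, lay at the floor on both arrays. Among its other transcription factor genes Cdx2 went from the floor to 5.48 and Tfap2c differed by -0.76, while Eomes was called higher (1.88).

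Some genes of muscle and blood were also higher. In the muscle contractile list 8 of 26 were called higher (background 6.26%) and 2 lower (background 4.07%), with a median of 0.61. Cnn1, the smooth muscle calponin, went from 5.74 to 9.12 (10.4-fold), the skeletal actin gene Acta1 from 6.67 to 9.54 and the cardiac actin gene Actc1 from the floor to 7.76. The bright muscle genes Myl9, a myosin light chain, and Tpm1, a tropomyosin, were at 9.35 and 11.13 and at 10.58 and 12.22, with further Tpm1 probe sets from 0.15 to 1.44. In the blood and endothelium list 7 of 17 were called higher (background 6.26%) and 0 lower, with a median of 0.56. The embryonic globin genes Hbb-y, Hbb-bh1 and Hba-x went from the floor to 8.81, 8.02 and 7.68, and at day 7 they were back at 6.07, 5.41 and the floor. In the mesoderm list 3 of 15 were called higher (background 6.26%) and 1 lower (background 4.07%). With one array required to reach 4 times the floor 0 were called higher. Its largest difference was that of the cardiac factor gene Tbx20, from the floor to 7.30.

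Primitive streak and mesendoderm genes had differences on both sides, with a median of 0.00. Of 13 measured genes 3 were called higher (background 6.26%) and 2 lower (background 4.07%). Amot, which encodes angiomotin, was at 8.42 and 10.83 by its brightest probe set and 0.73 and 0.79 higher by the others, while Sp5, a direct WNT target, went from 7.27 to the floor. T and Mixl1, the defining genes of the streak, were among 9 listed genes that were not measured. In the neuroectoderm list 3 of 13 were called lower (background 4.07%) and 0 higher, with a median of -0.39. When further probe sets had to share the direction 1 was called lower. Ncam1, an adhesion molecule, went from 8.19 to the floor, Pax6 from 8.86 to 7.66 and Stmn2 from 12.54 to 11.48. Further probe sets of Ncam1 ranged from -2.0 to 0.0 and those of Pax6 from -1.03 to 0.67.

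Markers of fibroblasts were the group with the lowest median. Of 31 measured genes 27 were called lower and 0 higher (background 4.07%), with a median of -2.76 and a range from -5.70 to 0.10. The collagen genes Col3a1 and Col1a2 went from 11.06 to the floor and from 11.73 to 7.19, at least 51.8-fold and 23.3-fold, with other probe sets at -2.40 and -4.52. Postn, the matrix protein periostin, went from 10.36 to the floor, Lox, a collagen cross-linking oxidase, from 10.83 to 6.23, and the proteoglycan gene Bgn from 11.98 to 8.27. All 5 were bright at day 0, and by day 4 Col3a1 and Postn had no signal above the floor. The summed signal of the list was log2 15.34 at day 0 and 13.76 at day 4, and in the full-length line 14.85 and 14.31. Fn1, Sparc, Cxcl12 and Acta2 were the 4 genes under 2-fold. At day 7 Col3a1 read 7.96, Postn 7.65, Lox 9.48 and Col1a2 9.40 in the deletion line, above their day 4 levels.

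Markers of myeloid cells were lower too, with 12 of 17 called lower (background 4.07%), 0 higher and a median of -1.93, and 7 called lower with the floor at the 50th percentile. Lyz1, a lysozyme gene, went from 12.76 to the floor, at least 168-fold, and its other probe set by -7.24. Lyz2 went from 11.60 to the floor, the protease gene Ctss from 9.68 to the floor, and the complement genes C1qa and C1qb from 7.94 and 7.80 to the floor. All 5 were therefore at the floor at day 4. The summed signal of the list was log2 13.81 at day 0 and 10.61 at day 4, and 12.07 and 10.31 in the full-length line. Lyz1 and Lyz2 were the brightest genes in this sum at day 0 in both lines. Of the 5 genes not called, Cd68 was well above the floor and nearly level at 8.77 and 8.81, and Mrc1, Lcp1 and Cx3cr1 differed by -0.31, -0.28 and 0.06. Spi1, the myeloid master factor, was at 5.82 and 6.03, near the floor on both arrays. The labels name no fibroblasts, feeders or myeloid cells, and the part of such cells in the lower genes of any other group was not tested.

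In the mesenchymal list 9 of 20 genes were called lower (background 4.07%) and 0 higher. The list median was -0.61, and -1.28 with probe sets chosen on the 2 compared arrays. The lower genes included Lox and S100a4, which the fibroblast list also holds, Cdh11, a cadherin of mesenchyme, at 10.51 and 5.79 (other probe set -1.94), Prrx1, a mesenchymal homeobox gene, from 8.50 to the floor and Snai2, a repressor of E-cadherin, from 8.30 to the floor. Twist1, Zeb2 and Mmp2 of the same list differed by 0.13, 0.18 and 0.10. Among collagen and basement membrane genes 11 of 29 were called lower (background 4.07%) and 2 higher. The 2 higher ones were Col4a1, a basement membrane collagen of endoderm, at 9.53 and 10.68, and Col27a1, from the floor to 7.38. In the cell cycle list 4 of 36 were called lower (background 4.07%) and 0 higher. Of these Ccnd2, a D-type cyclin, went from 11.36 to 8.14, 9.32-fold lower, Ccnd1 from 11.79 to 10.43, and the list median was -0.12.

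**Figure D3:**
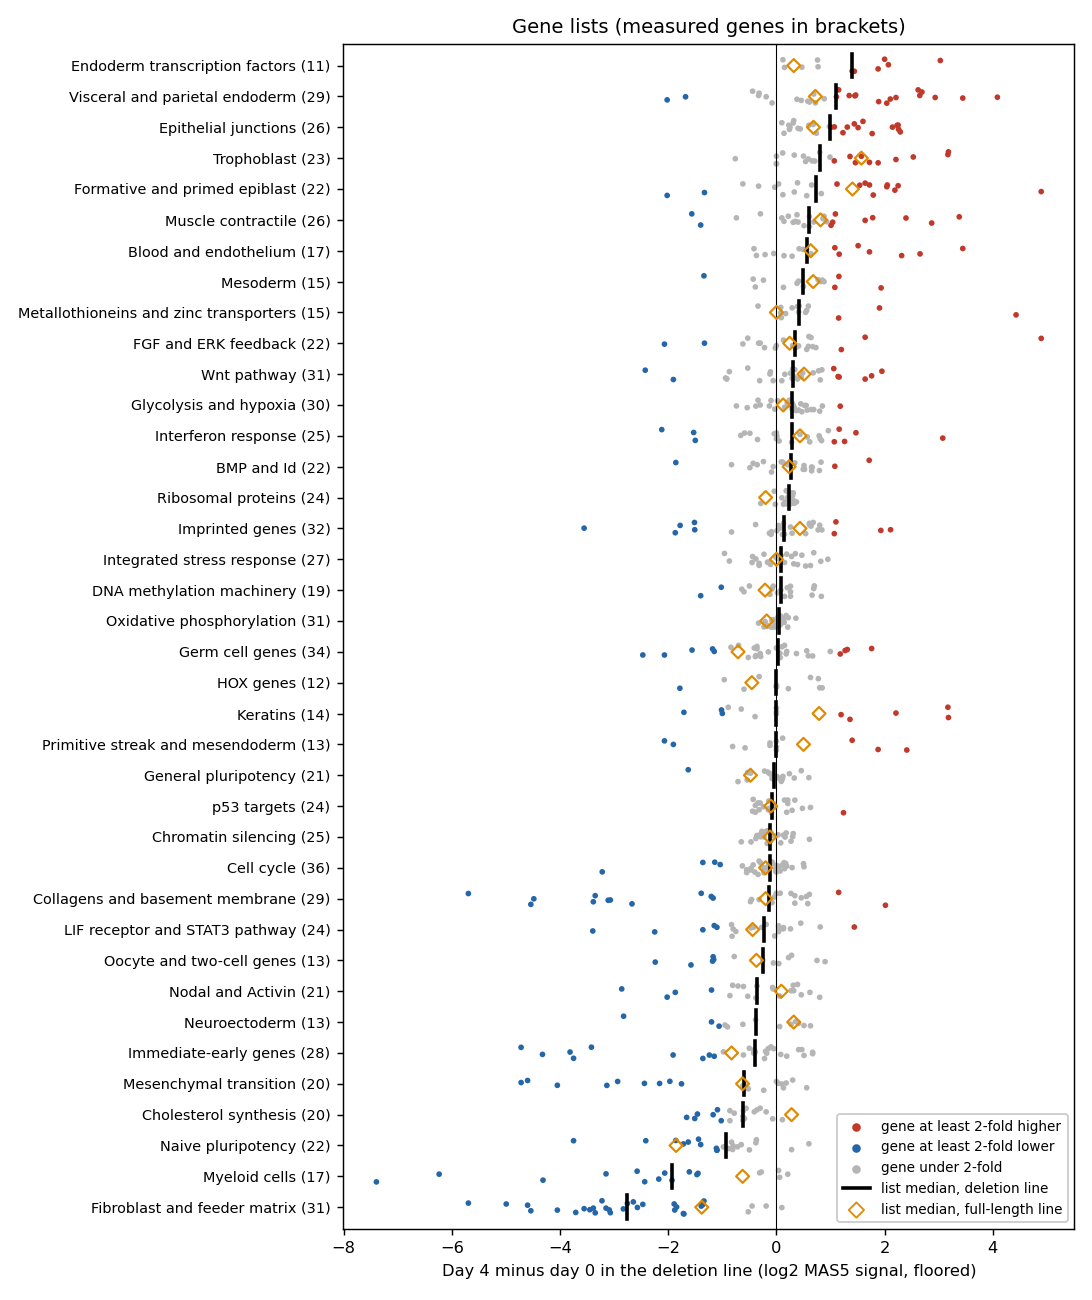
Day 4 minus day 0 in the deletion line (log2) for each measured gene of 38 gene lists, ordered by list median, with genes at least 2-fold higher in red and lower in blue, the list median as a bar and the full-length line's median as an open diamond. Endoderm transcription factors are at the top with a median of 1.40, and fibroblast and myeloid markers at the bottom with -2.76 and -1.93.

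Germ cell genes, many of which DNA methylation keeps silent in somatic cells, stood on both sides: 4 of 34 were called higher (background 6.26%) and 5 lower (background 4.07%), with a median of 0.03. Sycp3, a protein of the synaptonemal complex, was at 8.55 and 9.86, Tex15 at 8.52 and 10.28 and Asz1, of the piRNA pathway, at 6.35 and 7.62. In the other direction, Hormad1, a protein of meiotic chromosome axes, was at 10.32 and 7.85, Stra8, which starts meiosis, at 8.11 and 6.04, and Tex11 at 7.85 and 6.29. Genes of meiosis thus differed in both directions. Oocyte and two-cell genes were lower where they differed, with 5 of 13 called lower (background 4.07%) and 0 higher. Their median was -0.25, and -0.97 with the floor at the 50th percentile. Khdc3, an oocyte and stem cell protein, went from 11.32 to 9.08, and the zona pellucida gene Zp3 from 8.45 to 6.87. By day 7 Khdc3 read 11.70 and Stra8 9.37 in this line.

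Imprinted genes were mixed, with 4 of 32 called higher (background 6.26%), 5 lower (background 4.07%) and a median of 0.14. Nnat, the neuronatin gene, was at 6.4 and 8.51 and Sgce, a sarcoglycan, at 7.78 and 9.71, while the growth factor gene Igf2 was at 9.45 and 7.67, Ddc at 10.68 and 8.81 and Dcn at 8.92 and the floor. Dcn also stands in the fibroblast list. In the list of DNA methylation machinery 2 of 19 genes were called lower (background 4.07%), Tet2 and the cytidine deaminase gene Apobec1 (8.11 and 7.09), and 0 higher. Among 25 chromatin silencing genes 0 were called (background 10.3% in either direction), with differences from -0.65 to 0.61.

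Genes of cholesterol synthesis were lower. Of 20 measured genes 6 were called lower (background 4.07%) and 0 higher, with a median of -0.62 and a range from -1.66 to 0.11. Msmo1, the sterol C4-methyl oxidase, went from 12.48 to 10.82 (3.16-fold, other probe set -1.12). Lss, lanosterol synthase, went from 10.46 to 8.95, with further probe sets at -0.76 and -0.37. Insig1, the sterol-sensing retention protein, went from 11.18 to 9.72. Cyp51, Nsdhl and Idi1, further enzymes of the pathway, differed by -1.09, -1.17 and -1.02. The lower levels therefore spanned early and late steps of the pathway. Apart from Tm7sf2, at 0.11, every measured gene of the list lay below its day 0 level.

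Several other metabolic and stress lists held few calls or none, where 10.3% of all measured genes were called in either direction. Oxidative phosphorylation genes ranged from -0.33 to 0.36 with 0 of 31 called. Integrated stress response genes ranged from -0.96 to 0.95 with 0 of 27 called. Among p53 targets 1 of 24 was called higher (background 6.26%), the BH3-only gene Pmaip1 (9.14 and 10.38). In the glycolysis and hypoxia list 1 of 30 was called higher (background 6.26%), the prolyl hydroxylase gene P4ha2 (8.41 and 9.59). No list was tested against these shares. Ribosomal protein genes ranged from -0.29 to 0.37 with a median of 0.24 and 0 of 24 called. The metal list had 3 of 15 called higher (background 6.26%). The metallothionein gene Mt1 was at 13.19 and 14.34, with another probe set at -0.27, and Mt3 went from the floor to 7.27. The zinc transporter gene Slc39a8 went from 5.43 to 9.86. The interferon list had 5 of 25 called higher (background 6.26%) and 3 lower (background 4.07%). Psmb8, an immunoproteasome subunit, went from the floor to 8.44, Tap1, a peptide transporter, from 6.41 to 7.88, and Bst2, tetherin, from 10.98 to 12.24. Ifi27, Oas1a and Xaf1, induced by interferon, had differences of -2.12, -1.53 and -1.5.

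Signalling ligands and antagonists differed singly. In the Nodal and Activin list 4 of 21 were called lower (background 4.07%) and 0 higher. The activin subunit genes Inhbb and Inhba were at 9.29 and 6.43 and at 8.12 and 6.25. The antagonist gene Lefty1 was at 12.61 and 11.41, and Fst as above. In the BMP list Bmp8b went from the floor to 7.08, with its other probe set at 0.38, Bmp6 from 6.13 to 7.21 and the antagonist gene Grem1 from 7.75 to 5.89. In the WNT list 6 of 31 were called higher (background 6.26%) and 2 lower (background 4.07%). Wnt4 was at 5.87 and 7.82 by its brightest probe set and -0.47 by the other, Sfrp2, a secreted antagonist, at 7.74 and 9.5 and the receptor gene Fzd2 at 8.82 and 9.98, while Wnt5a went from 7.79 to the floor. The other higher genes were Dkk1, Nkd2, an inhibitor (1.14), and Rspo3, an agonist (1.06), and Sp5 was the other lower one. With probe sets averaged, 3 genes of the list were called higher. Of the HOX genes 12 were measured and 1 was called lower (background 4.07%), Hoxc8, which went from 7.15 to the floor.

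Genes outside these lists had some of the largest differences. Car4, a membrane carbonic anhydrase, went from 7.07 to 11.31 (18.9-fold, other probe set 4.16), Slc40a1, the iron exporter ferroportin, from 7.53 to 11.17 (12.5-fold, other probe set 2.69), and Clic6, a chloride channel protein, from the floor to 9.27 (other probe set 2.03). Slc39a8, named above, was 21.6-fold higher (other probe set 2.04). Spon1, a matrix protein, went from the floor to 9.09, Crym, a thyroid hormone binding crystallin, from 5.96 to 9.5, Tox3 from 6.99 to 10.14 and Prom1, the surface protein CD133, from 7.95 to 11.06. Fndc3c1, on the X chromosome, was at 7.09 and 10.58. At day 7 Spon1, the muscle gene Cnn1 named above and Fndc3c1 read the floor, 5.42 and 6.65, while Clic6 (9.18), Slc40a1 (10.49) and Gdpd3 (8.55 at day 4 and 8.5 at day 7) were closer to their day 4 levels. Among lower genes outside the lists, Mmp3, a matrix protease, and Col8a1 went from 9.53 and 9.82 to the floor, Emp1 from 11.27 to 7.17 and Ccdc80 from 9.35 to the floor.

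The full-length line went through the same steps, shares no array with the deletion line, and gives each gene a second pair of values. It had 1081 genes called higher (8.14%) and 668 lower (5.03%), together 13.2%. Of the 831 genes called higher in the deletion line, 407 (49.0%) were called higher in the full-length line, 9 lower and 415 not called, and those 407 were 37.7% of the full-length line's higher genes. Of the 540 lower genes, 228 (42.2%) were called lower in the full-length line, 17 higher and 295 not called, and the 228 were 34.1% of its lower genes. The same sign was seen for 716 of the 831 and 416 of the 540. The changes of the lines correlated across genes at r = 0.55 (Spearman rho 0.44, 13277 genes that are no replicates of each other, sharing probe sets but no array). No difference between the lines can be tested with 1 array for each line and day.

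**Figure D4:**
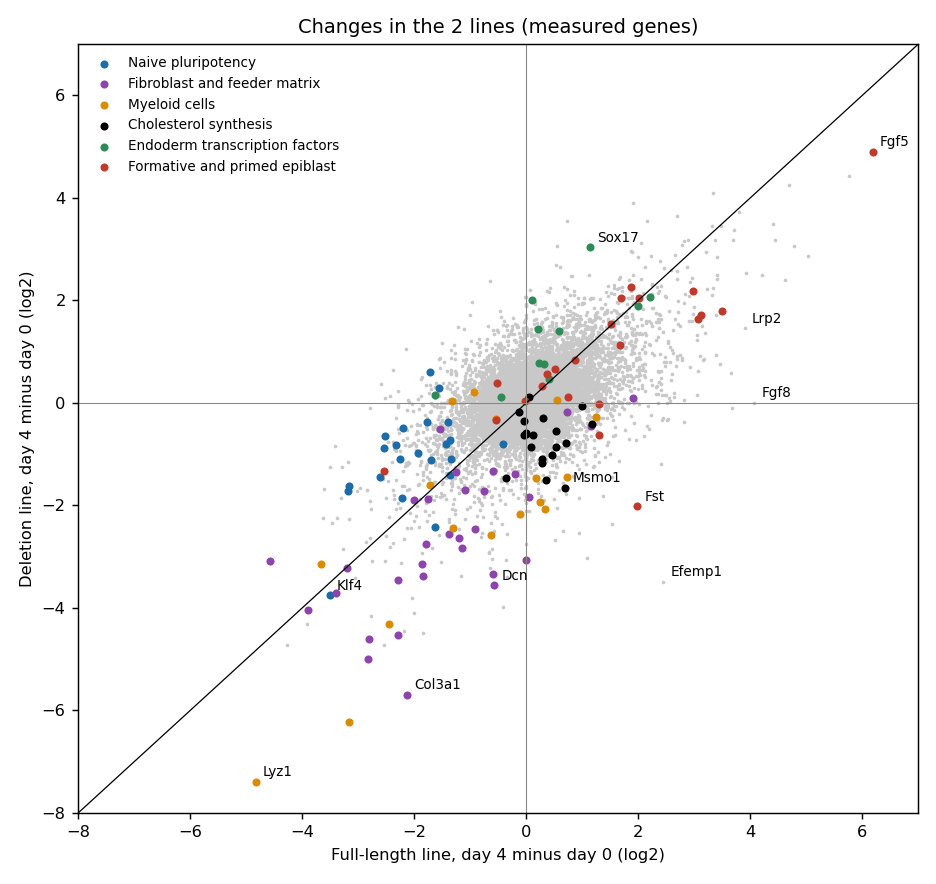
Day 4 minus day 0 (log2) in the full-length line (horizontal) and the deletion line (vertical) for the 13277 measured genes in grey, with 6 lists in colour and the line of equal change. Fibroblast markers (purple) lie mostly below the line, naive pluripotency genes (blue) mostly above it, and Efemp1, Fst and Fgf8 lie far below it on the right.

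The difference of the 2 changes reached 2-fold for 1521 genes (11.5%), 707 with a higher change in the deletion line (5.32%) and 814 with a lower one (6.13%). Values for the naive list lay on the smaller side in the deletion line: its median was -0.93 against -1.85 in the full-length line, with 10 and 21 of 22 genes called lower. Zfp42 differed by -0.38 against -1.77, Nr0b1 by -0.88 against -2.54, Fbxo15 by -0.50 against -2.20 and Fgf4 by 0.60 against -1.72. Klf4 was an exception, with -3.75 against -3.51. For the formative list the medians were 0.74 and 1.41. Fgf5 differed by at least 4.89 against 6.18, Pim2 by 1.79 against 3.50, and Otx2 by 2.04 against 1.69. Endoderm factors had medians of 1.40 and 0.32, with Sox17 at 3.03 against 1.13 and Sox7 at 2.0 against 0.10.

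Fibroblast markers had medians of -2.76 and -1.38, and myeloid markers of -1.93 and -0.62. Their summed levels at day 0 were higher in the deletion line. Lyz1, the brightest gene of the myeloid sum, lay at 12.76 against 10.2 at day 0, and at the floor in both lines at day 4. The cholesterol list had medians of -0.62 and 0.28, and its 6 called genes ranged in the full-length line from -0.36 for Insig1 to 0.69 for Msmo1. The named genes with the lowest difference of changes were Efemp1, a matrix protein (9.05 to 5.56 in the deletion line, 7.16 to 9.6 in the full-length line), the streak ligand gene Fgf8 (at the floor on both deletion line arrays, from the floor to 9.43 in the other), Fst, Tmem176b (8.26 to 5.90 against 5.84 to 7.36) and Vnn1. At the other end stood Cpn1, the meiosis gene Meiob, Tsx and Lgals2, a galectin. Lgals2 went from 5.48 to 9.03, and in the other line from the floor to 6.09, Tsx from 7.71 to 8.07 against 8.38 to 5.78, and Meiob from 5.80 to 6.43 against 8.01 to 5.62. These genes were chosen for the gap, so their values are a description only.

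Probe sets of the same gene, which share RNA and array but not probes, gave a check of the probes. Of 6152 genes with at least 2 measured probe sets, the brightest and the next brightest differed in their day 4 change by a median of 0.26, and their changes correlated at r = 0.67 across genes. Where both probe sets were at least 8 on both arrays the median gap was 0.18 over 2930 genes, and 0.39 over the other 3222. Of the called genes with another probe set, the next brightest had the same direction in 306 of 346 higher genes (88.4%) and 157 of 173 lower genes (90.8%), and was itself at least 2-fold in 153 (44.2%) and 102 (59.0%). A further 485 higher and 367 lower genes had 1 measured probe set and no such check. In 3 genes the next brightest probe set was called in the opposite direction. These were Gsn, the actin severing protein gelsolin (2.38 and -1.18), Ubxn11 (-1.24 and 1.12) and Arhgap29 (1.21 and -1.06).

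**Figure D5:**
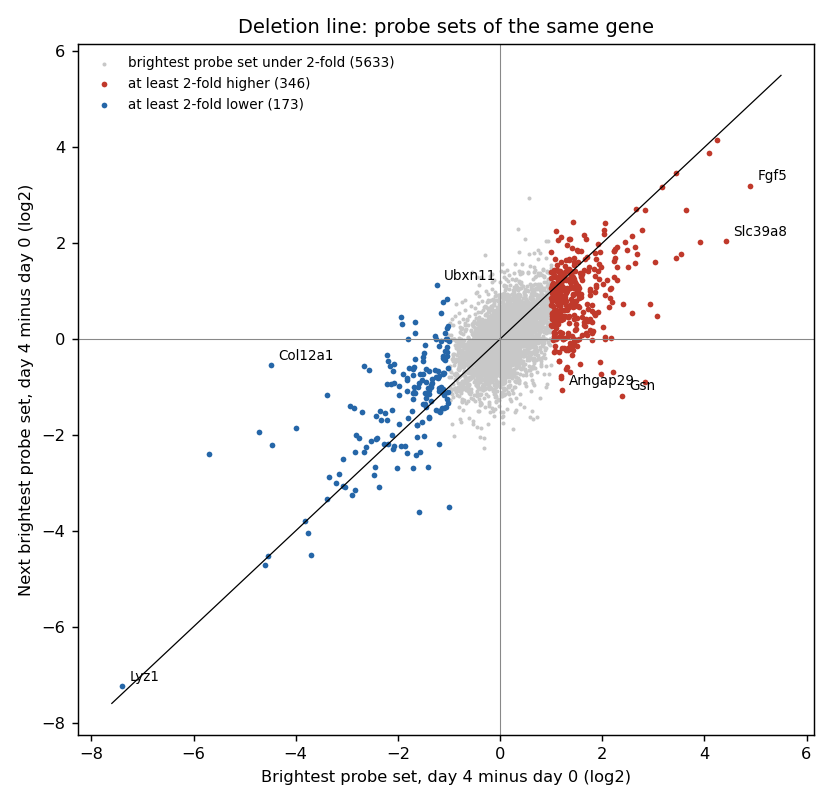
Day 4 minus day 0 in the deletion line (log2) by the brightest probe set (horizontal) and the next brightest (vertical) for the 6152 genes with at least 2 measured probe sets, coloured by the call of the brightest. Most red and blue points keep their sign on the vertical axis but lie nearer 0 than the line of equality, and Gsn, Ubxn11 and Arhgap29 are called in opposite directions.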

How the data were processed

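Each of the 6 mouse RNA samples has 1 Affymetrix array, and titles gave the groups. The deposited values are MAS5 signals, per the submitters' processing notes, read here as log2: 2 to their power has a trimmed mean of 496.7 to 496.9 on all 6 arrays. The sources used here do not state the MAS5 version or scaling target. Array medians ran from 6.02 to 6.19. Of 45037 probe sets, between 350 and 514 read 0 on an array. Global scaling removes any shift shared by most genes.

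Of the probe sets, 34945 had 1 gene symbol in the platform annotation, 932 several and 9160 none; 34741 were found by gene identifier in the RefSeq table, with 0 symbols changed. Each gene is read from the probe set brightest on average over the 6 arrays and was measured where that mean reached the floor, a signal of 41.2, the median over arrays of the 40th percentile. Python 3.11.15 with numpy 2.4.6 and pandas 2.3.3 was used, and the steps were tested on simulated data.

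Named genes are the 20 highest and 20 lowest differences that reach 4 times the floor and have probe sets in 1 direction, the 10 highest and lowest differences between lines, up to 6 genes with the largest difference of each list, all members of the LIF, immediate early and 3 pluripotency lists, DNMT genes, and genes with opposed probe sets. Other genes, most with small differences, were named after their values were seen. Members and lists were chosen with earlier results of these data known. Of 1074 list entries 864 were measured.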

Additional observations from a re-analysis of the deposited data

Results flagged for a closer look

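Differences of opposite direction in the 2 lines were not tested, since each line and day has 1 array. Of 26 genes called in opposite directions, 7 were among the named genes. Efemp1 had a log2 difference of -3.49 in the deletion line and 2.44 in the full-length line. For Tmem176b the values were -2.36 and 1.52, for Fst -2.02 and 1.98, and for Pmp22, a myelin protein gene, -1.19 and 2.40. Mocos, a molybdenum cofactor sulfurase, had 1.43 and -1.12, Kndc1 1.16 and -1.51, and Cpn1, a carboxypeptidase, 1.06 and -2.15 (both lower bounds in size). Of these 7 genes Fst had another measured probe set, which gave -2.69 in the deletion line.

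Among gene lists, medians of opposite sign and at least 0.2 in size were seen for cholesterol synthesis (-0.62 in the deletion line and 0.28 in the full-length line), neuroectoderm (-0.39 and 0.32) and ribosomal proteins (0.24 and -0.20). The ribosomal median in the deletion line ran from 0.03 to 0.24 over the processing alternatives, and no ribosomal gene was called.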

How the results depend on the processing

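No paired analysis was possible because each line and day has 1 array, and no array could be left out. Over 10 alternatives, 53 of 60 counts stayed within 1.5 times the reported count. Of the list medians 378 of 380, and of the gene differences 3052 of 3180, moved by less than log2 0.585 (1.5-fold). Some alternatives change only the calls and leave medians and differences as they were by construction. These are agreement of further probe sets, no filter on low values and the 4 times limit. The medians that moved were the mesenchymal one, to -1.28 with probe sets chosen on the 2 compared arrays, and the oocyte one, to -0.97 with the floor at the 50th percentile. Of 760 list counts, 32 moved by over 1.5 times, most of them counts of 5 or fewer. The 1.5-fold limit was chosen and measures no spread between cultures, for which there are no replicates. Genes called lower in the deletion line numbered 950 with the floor at the 25th percentile and 354 when one array had to reach 4 times the floor. With that lower floor 1023 genes were called lower in the full-length line, and the difference of the changes reached 2-fold for 1205 genes upward and 1514 downward. Downward it was 537 with the floor at the 50th percentile and 499 with the 4 times limit. Fewer or more dim genes enter under these settings by construction. With arrays scaled to equal medians, 732 genes were called higher and 605 lower, a share of 54.7% higher against 60.6%. Gsn reversed, to -1.18 with the brightest probe set of the 2 compared arrays and -0.002 with probe sets averaged, as its probe sets differ in direction. Dropping the filter on low values changed no count within a line, since a 2-fold difference above the floor already meets it. Differences from the floor are lower bounds.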

Other observations

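Genes of the X chromosome were called higher more often than those of any autosome. Of 457 measured X-linked genes 54 were called higher at day 4 in the deletion line (11.8%) and 17 lower (3.72%), while over the 19 autosomes the share called higher ran from 4.39% to 7.96%. The X median was 0.15, and autosome medians ran from 0.01 to 0.11. In the full-length line 83 of the 457 were called higher (18.2%), against at most 10.97% for any autosome, with a median of 0.24. The named X-linked genes among the 54 included Fndc3c1 (3.49), Cited1 (2.62), Plac1 (2.53), Amot (2.41), Pim2 (1.79) and Sox3 (1.54). These shares are a description, with no test.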
